A study of Mus musculus with 16 samples.

Results

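The genes described here are those of hepcidin and iron handling in mouse liver: hepcidin (Hamp), its second copy (Hamp2), the iron exporter ferroportin (Slc40a1), the transferrin receptors Tfrc and Tfr2, transferrin (Trf), the ferritin chains Fth1 and Ftl1, ceruloplasmin (Cp) and the hepcidin inducer Bmp6. They were chosen by name, and all 10 were found among the 54838 gene identifiers of the count files. Whole-liver messenger RNA of wild-type male C57BL/6J mice was sequenced in an experiment with toxic and an experiment with surgical loss of liver tissue; the age of the mice is not given in the sources used here. In the injection experiment, 3 CCl4 samples came from mice given carbon tetrachloride mixed with olive oil in equal volumes, and 3 olive oil samples came from mice given the oil alone. Both were injected into the peritoneum at 2 µL per g of body weight, and the livers were taken on day 3. In the surgical experiment, 5 PH day 3 samples were livers taken on day 3 after partial hepatectomy, and 5 PH day 0 samples were the liver pieces removed at the operation. PH day 0 is therefore resected tissue and not liver of sham-operated mice, so the operation itself and regrowth cannot be told apart. Both surgical groups carry the numbers 12 to 16, and whether a shared number means the same mouse is not known here.

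Hepcidin is a peptide hormone secreted by hepatocytes that binds ferroportin on enterocytes, macrophages and hepatocytes and has it degraded, which lowers the release of iron into blood. Its transcription rises with BMP ligands of liver endothelial cells, which act through SMAD proteins, and with interleukin-6, which acts through STAT3, while the protease matriptase-2 (Tmprss6) dampens the BMP branch. Inside cells, iron regulatory proteins bind hairpins called iron responsive elements (IREs): a hairpin before the coding sequence blocks translation when iron is low, and hairpins after it stabilise the messenger RNA.

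Hamp and Hamp2 lie near each other on chromosome 7 of GRCm38, and their start regions are shown because the results turn on how these copies moved together. Both windows cover the 250 bases before the RefSeq start site (GRCm38.p6), at chr7:30944030-30944279 for Hamp and chr7:30924182-30924431 for Hamp2, each given on the minus strand. Capitals mark GGCGCC, the core of the BMP responsive element, and TTCNNNGAA, the STAT motif, searched on both strands.
Hamp: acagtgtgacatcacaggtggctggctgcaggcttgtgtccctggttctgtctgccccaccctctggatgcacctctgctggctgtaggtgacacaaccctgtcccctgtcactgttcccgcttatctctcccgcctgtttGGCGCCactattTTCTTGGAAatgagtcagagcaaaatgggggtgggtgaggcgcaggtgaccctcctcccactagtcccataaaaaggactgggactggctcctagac
Hamp2: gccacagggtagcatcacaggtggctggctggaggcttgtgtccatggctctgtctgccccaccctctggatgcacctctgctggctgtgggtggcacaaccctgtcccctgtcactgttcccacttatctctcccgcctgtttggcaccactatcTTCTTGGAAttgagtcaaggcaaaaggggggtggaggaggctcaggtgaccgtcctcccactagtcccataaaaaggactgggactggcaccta
Of 247 aligned bases, 227 were the same (91.9%), with 20 substitutions and 6 gap columns. Counted from 1 at the 5′ end of the Hamp window, the substitution G145A lay inside the BMP responsive element, 106 bases before the start site, so GGCGCC was found in the Hamp window and not in the Hamp2 window. The STAT motif stood in both, 97 bases before the start in Hamp and 94 in Hamp2. Of 32536 distinct promoter windows of 250 bases, 9.65% held GGCGCC and 7.04% held TTCNNNGAA. The windows of 8 of the 10 genes were in the RefSeq table. A match is a description of the letters and not of a bound site.

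The IREs are shown because 4 of the 10 genes carry a hairpin of this pattern in their transcript, and these are the exporter, the receptor Tfrc and both ferritin chains. Capitals mark the hairpin loop CAGTGN in DNA letters, read from GENCODE M21 transcripts.
Fth1, 5′ UTR: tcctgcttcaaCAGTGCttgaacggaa
Ftl1, 5′ UTR: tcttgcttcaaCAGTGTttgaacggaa
Slc40a1, 5′ UTR: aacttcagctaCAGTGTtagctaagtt
Tfrc, 3′ UTR, site 1: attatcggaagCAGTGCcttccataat
Tfrc, 3′ UTR, site 2: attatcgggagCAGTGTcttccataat
Tfrc, 3′ UTR, site 3: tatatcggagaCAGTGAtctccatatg
Tfrc, 3′ UTR, site 4: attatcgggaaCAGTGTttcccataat
The same search found a match in 158 of 21179 protein-coding genes (0.746%). Translational block by a 5′ hairpin is not visible in messenger RNA levels, whereas a change in the stability of Tfrc messenger RNA would be.

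Total counts per sample were 4738196 to 6218526 in CCl4, 4295169 to 5221957 in olive oil, 2795909 to 4391002 in PH day 3 livers and 3271398 to 8647503 in PH day 0 livers. Levels are CPM, counts divided by the library total with TMM factors that correct for library composition, and 3 counts in a sample were worth 0.370 to 1.03 CPM. CCl4 replicate 1 stood apart from the other CCl4 libraries: its TMM factor was 0.98 against 1.31 and 1.30, it was the lowest of the 3 for the division marker Mki67 at 65.4 CPM (the others were at 124 and 187 CPM), and it was the highest for Hamp, Hamp2, Trf and Cp. Results that rest on it are given with and without it. All 8 hepatocyte markers were detected in every group, and the hepatocyte gene Alb was at 66982 to 81298 CPM in CCl4, 70143 to 80126 CPM in olive oil, 86157 to 100568 CPM in PH day 3 livers and 47936 to 63755 CPM in PH day 0 livers. All 8 markers of dividing cells rose in both experiments. With library size as the only scaling, the median log2 change of all genes moved by 0.45 for CCl4 and 0.14 for PH. The called genes of the CCl4 comparison then split into 2973 risen and 423 fallen, against 1279 and 1320 with TMM, and those of PH into 1617 and 432, against 1026 and 845.

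Levels between genes were compared per kilobase of counted exon length (RPKM, from CPM). In PH day 3 livers Fth1, the ferritin heavy chain that oxidises iron for storage, stood highest at 999.9 ± 89.0 RPKM (SD, n = 5), followed by Trf at 499 ± 104 and Hamp at 201 ± 85.7, whose range overlapped that of the next gene, Cp. In PH day 0 livers Fth1 at 1035 ± 119.7 RPKM (n = 5) was followed by Hamp at 819 ± 85.4 and Trf at 344 ± 51.7. The ranges of Fth1 and Hamp overlapped at PH day 0, and those of Hamp and Trf did not. In CCl4 livers Hamp had the highest mean, 1688 ± 1358 RPKM (n = 3), with a range that overlapped that of Fth1 at 985 ± 204, whereas in olive oil livers Fth1 at 1214 ± 63.7 stood above Hamp at 785 ± 294 without overlap. The lowest 3 ranks went to Slc40a1, Tfrc and Bmp6 in each group, and Bmp6 reached at most 0.951 RPKM on average.

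**Figure D1:**
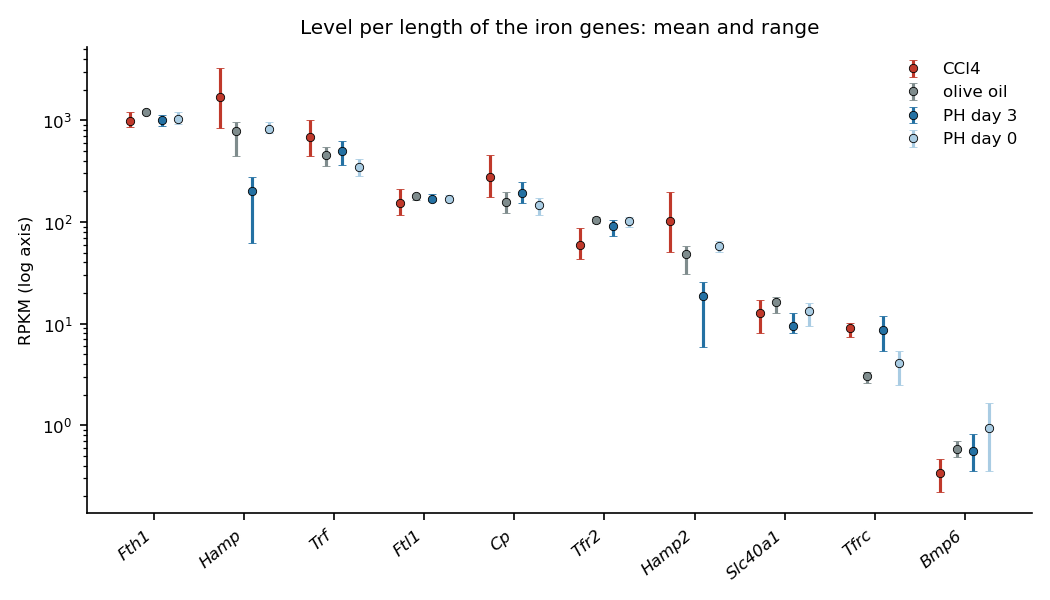
Mean level per length (RPKM, log axis) of the 10 iron genes in CCl4, olive oil, PH day 3 and PH day 0 livers, with bars from the lowest to the highest sample (n = 3, 3, 5 and 5). Hamp averaged 201 RPKM at PH day 3 and 819 RPKM at PH day 0, and Bmp6 was lowest in each group.

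Which iron genes change in the regrowing liver was asked in each experiment apart, with edgeR's quasi-likelihood test over all genes where a gene was called at a p under 0.05 after Benjamini-Hochberg adjustment. After partial hepatectomy 6 of the 10 genes passed: Trf, Tfrc and Cp rose, and Hamp2, Hamp and Slc40a1 fell. Over all 10546 genes tested 17.7% were called, 9.73% as risen and 8.01% as fallen. After CCl4, 2 of the 9 genes tested passed, Tfrc as risen and Tfr2 as fallen, and Bmp6 was below the filter on low counts. Over all 11337 genes tested 22.9% were called, 11.3% as risen and 11.6% as fallen, so the share of the iron genes was near this background. Without CCl4 replicate 1, Tfrc rose and Tfr2 and Fth1 fell. The share over all genes in that fit is not given here. Leaving out 1 sample gave 1492 to 3513 calls over all genes, against 2599 with all samples. Tfrc was the gene that passed in both experiments.

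Hepcidin messenger RNA was lower in every liver on day 3 after surgery than in any resected piece. Hamp (ENSMUSG00000050440, chromosome 7, 30942368 to 30944032, minus strand) stood at 82.2, 108, 114, 25.3 and 82.1 CPM in PH day 3 replicates 12 to 16, against 323, 344, 308, 393 and 311 CPM in PH day 0 replicates 12 to 16. Every PH day 3 value lay below every PH day 0 value, with replicate 15 the lowest of all. Its log2 change was -2.02 ± 0.35 (SE, adjusted p = 0.0043 with edgeR), a level 4.06-fold lower at PH day 3, and it was -1.79 without PH day 3 replicate 15. Fewer cells of a type and less RNA per cell cannot be told apart in whole liver. The summed hepatocyte markers were at 126507 to 147609 CPM at PH day 3, above the 87326 to 103362 CPM at PH day 0. Alb was the largest part of this sum, at 86157 to 100568 CPM at PH day 3 against 47936 to 63755 CPM at PH day 0. Of the 8 markers, Alb and Ahsg rose, Apoa1 fell and 5 did not pass, so the sum mainly follows Alb. The share of hepatocytes was not measured.

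Hamp2 (ENSMUSG00000056978, chromosome 7, 30922372 to 30924681, minus strand), whose product in mice is not known to act on ferroportin, moved with Hamp. It was at 13.9, 14.8, 12.6, 3.45 and 10.2 CPM in PH day 3 replicates 12 to 16, against 29.7, 35.3, 34.4, 37.6 and 30.9 CPM in PH day 0 replicates 12 to 16. The groups did not overlap, and replicate 15 was again the lowest. The fitted log2 change was -1.60 ± 0.25 (adjusted p = 0.00025 with edgeR), or 3.03-fold lower at PH day 3. Reads that fit both copies were not counted, so how reads divide between Hamp and Hamp2 is uncertain.

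After CCl4 the hepcidin copies did not pass, and the CCl4 libraries differed widely among themselves. Hamp was at 1334, 397 and 346 CPM in CCl4 replicates 1 to 3, against 385, 183 and 398 CPM in olive oil replicates 1 to 3. The groups overlapped: replicate 1 alone was high, and the other CCl4 samples lay within the olive oil range. The log2 fold change was 1.09 ± 0.63 (adjusted p = 0.28 with edgeR), and 0.19 without CCl4 replicate 1 (adjusted p = 0.73). Hamp2 was likewise highest in CCl4 replicate 1, with 115, 29.6 and 34.5 CPM in CCl4 against 34.1, 18.01 and 32.8 CPM in olive oil, a log2 fold change of 1.05 ± 0.65 (adjusted p = 0.32) and 0.17 without CCl4 replicate 1.

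The responses of hepcidin to the 2 challenges were compared as CCl4 over olive oil minus PH day 3 over PH day 0, in a fit of all 16 samples. This difference was 3.13 ± 0.72 on the log2 scale for Hamp (adjusted p = 0.025 with edgeR) and 2.67 ± 0.66 for Hamp2 (adjusted p = 0.034), the 2 of 10 genes that passed, where 5.33% of 11868 genes did (1.47% upward and 3.87% downward). Without CCl4 replicate 1 the difference was 2.24 for Hamp (adjusted p = 0.035) and 1.79 for Hamp2 (adjusted p = 0.016). For Hamp this was lost when any olive oil liver was left out (adjusted p = 0.056 to 0.064). The Hamp2 call also ended without any of these, without PH day 0 replicate 13, 14, 15 or 16, without PH day 3 replicate 14 or 16, and with limma-voom (adjusted p = 0.067) or no filter (adjusted p = 0.055). The file headers put injection and surgery samples in separate experiments, so experiment and challenge cannot be told apart here.

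**Figure D2:**
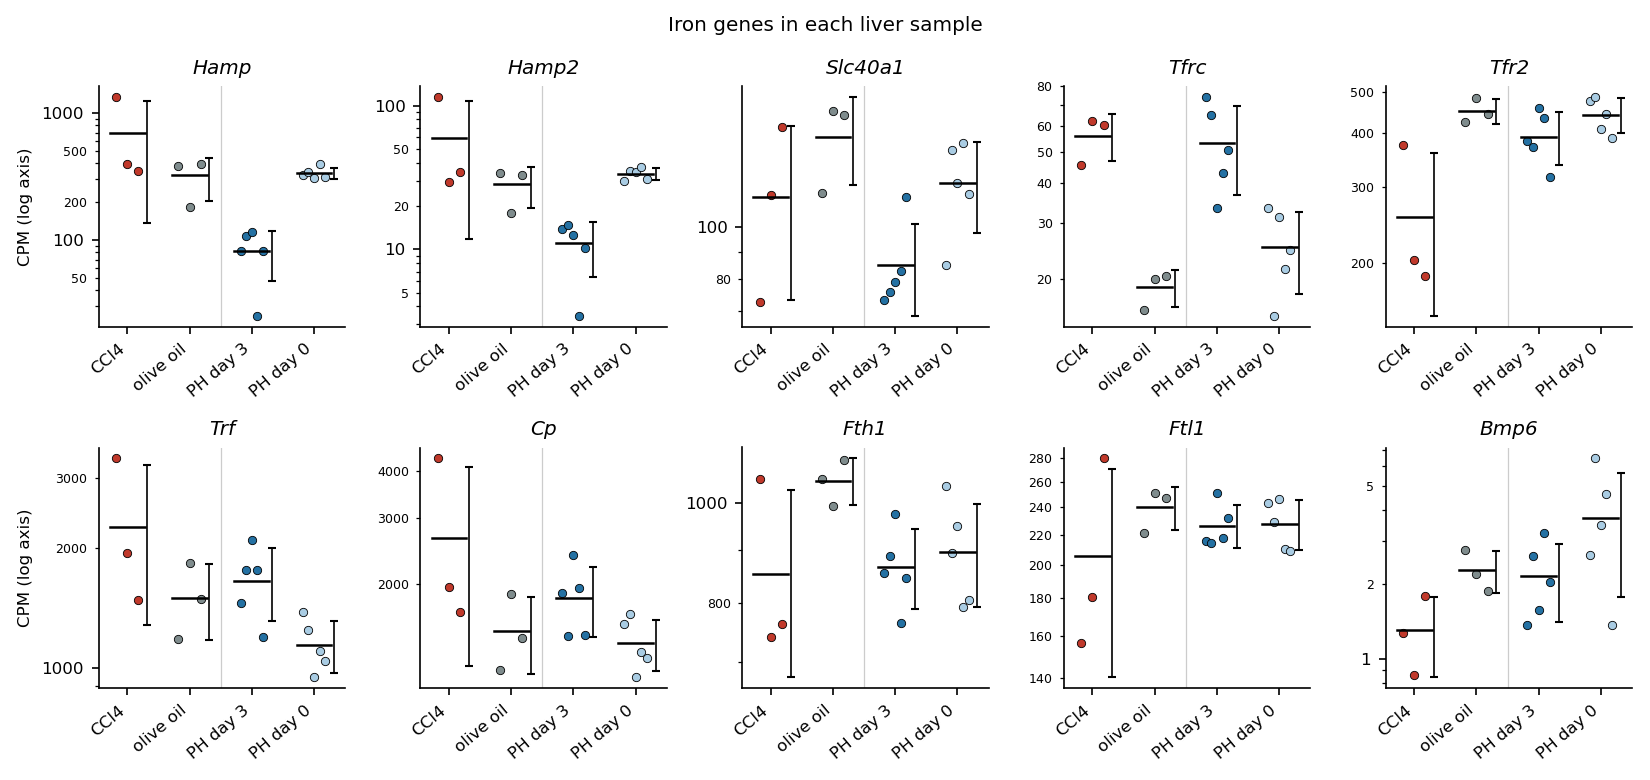
Level of each iron gene (CPM, log axis) in every liver sample, with the group mean as a line and its SD as a bar (CCl4 and olive oil n = 3 each, PH day 3 and PH day 0 n = 5 each). All 5 Hamp values at PH day 3 lie below those at PH day 0, and the Tfrc values of each challenge lie above those they are set against.

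Of the genes through which hepatocytes sense and export iron, ferroportin passed as fallen after surgery and Tfr2 after CCl4. Slc40a1 (ENSMUSG00000025993, chromosome 1, 45908068 to 45926523, minus strand), the exporter on which hepcidin acts, was at 73.3, 75.8, 79.2, 82.9 and 114 CPM in PH day 3 replicates 12 to 16, against 85.0, 139, 121, 143 and 115 CPM in PH day 0 replicates 12 to 16. The groups overlapped only through the high PH day 3 replicate 16 and the low PH day 0 replicate 12. Its log2 fold change was -0.49 ± 0.14 (adjusted p = 0.026 with edgeR). The call ended in the fit of all 16 samples (adjusted p = 0.092), with library size scaling (adjusted p = 0.14) and without PH day 0 replicate 13 or 15 or PH day 3 replicate 12, 13, 14 or 15 (adjusted p = 0.059 to 0.063). After CCl4 it was at 72.6, 115 and 153 CPM in CCl4, against 116, 164 and 162 CPM in olive oil, and did not pass (-0.39 ± 0.26, adjusted p = 0.31), with a sign that turned to 0.11 under library size scaling. The difference of the responses was 0.13 (adjusted p = 0.88). Kupffer cells also export iron through ferroportin. Their 8 markers summed to 502 to 609 CPM at PH day 3 against 646 to 729 CPM at PH day 0. C6, the largest part of this sum, fell (252 to 317 CPM at PH day 3 against 433 to 578 CPM at PH day 0). Marco rose (31.2 to 98.1 CPM against 3.78 to 10.2 CPM), and the other 6 did not pass. The part of these cells in the Slc40a1 result was not tested.

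Tfr2 (ENSMUSG00000029716, chromosome 5, 137569840 to 137587481, plus strand), a second transferrin receptor through which hepatocytes sense iron-loaded transferrin for hepcidin control, was at 375, 203 and 187 CPM in CCl4 replicates 1 to 3. Olive oil replicates 1 to 3 held 425, 484 and 445 CPM. The CCl4 values were all lower, replicate 1 by the least. Its log2 change was -0.84 ± 0.26 (adjusted p = 0.044 with edgeR), and -1.22 without CCl4 replicate 1. Scaling by library size gave an adjusted p of 0.14 and upper quartile factors 0.064, and leaving out CCl4 replicate 2, CCl4 replicate 3 or any olive oil liver gave 0.10 to 0.15. After surgery, Tfr2 stood at PH day 3 at 383, 372, 457, 435 and 317 CPM, against 476, 486, 408, 443 and 391 CPM at PH day 0, groups that overlapped (-0.16 ± 0.10, adjusted p = 0.33). The difference between the responses was -0.66 (adjusted p = 0.13) and passed without CCl4 replicate 1, at -1.04 (adjusted p = 0.00021).

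Bmp6 (ENSMUSG00000039004, chromosome 13, 38345107 to 38500302, plus strand), the ligand that endothelial cells release with iron load, was near the detection limit. Its counts were 6, 7 and 11 in CCl4 and 11, 10 and 8 in olive oil, which gave 1.27, 0.862 and 1.80 CPM in CCl4 against 2.76, 2.20 and 1.89 CPM in olive oil. These groups did not overlap. Bmp6 was below the filter in the main test and was not called in the 7 alternatives that tested it, such as the fit of all 16 samples (-0.80 ± 0.57, adjusted p = 0.32) and the fit with no filter (-0.82 ± 0.74, adjusted p = 0.54). At PH day 3 it was at 1.37, 2.60, 1.57, 3.22 and 2.04 CPM, against 2.63, 6.46, 3.47, 4.62 and 1.37 CPM at PH day 0. The PH groups overlapped, and the log2 fold change of -0.75 ± 0.42 did not pass (adjusted p = 0.24). Of 8 endothelial markers, Kdr, Fcgr2b and Clec4g fell after surgery, 0 rose and 5 did not pass. Among those 5, the medians of Lyve1 (8.59 CPM at PH day 3 against 4.85 CPM at PH day 0) and Pecam1 (18.4 against 15.4 CPM) were higher. The medians of Stab2, Bmp2 and Oit3 were lower. The 8 markers summed to 112 to 179.9 CPM at PH day 3 against 169 to 234 CPM at PH day 0. Their part in the Bmp6 values was not tested.

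The receptor for iron uptake was higher after both challenges. Tfrc (ENSMUSG00000022797, chromosome 16, 32608920 to 32632794, plus strand), which takes up iron-loaded transferrin and whose 3′ UTR holds the 4 hairpins above, was at 45.4, 62.3 and 60.3 CPM in CCl4 replicates 1 to 3, against 16.0, 19.99 and 20.5 CPM in olive oil replicates 1 to 3. After surgery, it stood at PH day 3 at 74.0, 64.8, 33.3, 42.8 and 50.4 CPM, against 33.2, 15.4, 31.2, 21.5 and 24.7 CPM at PH day 0. Neither pair of groups overlapped, although PH day 3 replicate 14 lay just above PH day 0 replicate 12. The fitted log2 change was 1.55 ± 0.18 after CCl4 (adjusted p = 0.00033 with edgeR), or 2.93-fold higher, and this call held in all 15 alternatives. After surgery it was 1.08 ± 0.25 (adjusted p = 0.012), or 2.11-fold higher, and the difference between the responses did not pass (0.50 ± 0.35, adjusted p = 0.48). Markers of dividing cells moved with it: their sum in CCl4 livers was 434 to 657 CPM, and in olive oil livers 17.2 to 21.1 CPM, and 136 to 284 CPM at PH day 3 against 13.4 to 37.2 CPM at PH day 0. Markers of red blood cells, whose precursors carry much Tfrc, summed to 134 to 244 CPM in CCl4 livers, and 439 to 516 CPM in olive oil livers, and to 692 to 1894 CPM at PH day 3 against 758 to 2054 CPM at PH day 0. After CCl4 all 5 tested red blood cell markers fell. After surgery Alas2 fell, at 65.8 to 111 CPM at PH day 3 against 147 to 199 CPM at PH day 0. The other 4 tested did not pass. The part of either marker group in the Tfrc result was not tested.

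Transferrin and ceruloplasmin, which hepatocytes secrete into plasma to carry and oxidise iron, both passed as risen after surgery. Trf (ENSMUSG00000032554, chromosome 9, 103204001 to 103230444, minus strand) was at 1455, 1768, 2100.4, 1758 and 1196 CPM in PH day 3 replicates 12 to 16, against 1381, 1242, 946, 1098 and 1040.0 CPM in PH day 0 replicates 12 to 16. Only PH day 3 replicate 16 fell within the PH day 0 range. The log2 fold change was 0.55 ± 0.13 (adjusted p = 0.0068 with edgeR), which passed in 19 of 20 alternatives and not in the fit of all 16 samples (adjusted p = 0.072). Trf was at 3369.6, 1940.2 and 1480.1 CPM in CCl4, against 1179, 1833 and 1488 CPM in olive oil, and did not pass (0.58 ± 0.32, adjusted p = 0.23, and 0.18 without CCl4 replicate 1), except with library size scaling (0.97, adjusted p = 0.015).

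Cp (ENSMUSG00000003617, chromosome 3, 19957054 to 20009145, plus strand) was at 1896, 1458, 2388, 1952 and 1461 CPM in PH day 3 replicates 12 to 16, against 1563, 1664, 1131, 1320.3 and 1270.0 CPM in PH day 0 replicates 12 to 16. PH day 3 replicates 13 and 16 lay within the PH day 0 range. Its log2 change of 0.41 ± 0.14 passed narrowly (adjusted p = 0.045 with edgeR), and the call ended in 11 of 20 alternatives, among them the fit of all 16 samples (adjusted p = 0.27), limma-voom (adjusted p = 0.065), and without PH day 0 replicate 14, 15 or 16 or PH day 3 replicate 12, 14 or 15 (adjusted p = 0.094 to 0.12). In the injection experiment Cp was at 4318, 1961 and 1686 CPM in CCl4, against 1183, 1876 and 1441 CPM in olive oil. CCl4 replicate 1 was again far above the rest, and the log2 fold change was 0.81 ± 0.37 (adjusted p = 0.14), or 0.27 without that replicate. It passed with library size scaling (1.18, adjusted p = 0.0091), with no filter (0.80, adjusted p = 0.0037) and in the fit of all 16 samples (0.82, adjusted p = 0.042).

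The ferritin chains showed no call in either experiment with all samples. Fth1 (ENSMUSG00000024661, chromosome 19, 9982703 to 9985092, plus strand) was at 1056, 740.1 and 763 CPM in CCl4, against 1057, 994 and 1104 CPM in olive oil. CCl4 replicate 1 lay within the olive oil range and the other CCl4 replicates lay below it. The fitted log2 change was -0.32 ± 0.22 (adjusted p = 0.32 with edgeR), it passed without CCl4 replicate 1 (-0.50, adjusted p = 0.019), and it was 0.10 under library size scaling. At PH day 3 Fth1 was at 855, 888, 977, 764 and 845 CPM, against 1039.9, 895, 949.9, 792 and 804 CPM at PH day 0, a change of -0.04 ± 0.10 (adjusted p = 0.85). Those groups overlapped almost entirely.

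Ftl1 (ENSMUSG00000050708, chromosome 7, 45457944 to 45459884, minus strand), the ferritin light chain that helps build the iron core, was at 156, 181 and 279.7 CPM in CCl4, against 221, 251 and 247 CPM in olive oil. The CCl4 samples lay on both sides of the olive oil range, and the change of -0.24 ± 0.22 did not pass (adjusted p = 0.46), nor did it keep its sign under library size scaling (0.24). After surgery, it stood at PH day 3 at 216, 214, 251, 218 and 232 CPM, against 243, 229, 246, 210.2 and 209 CPM at PH day 0, overlapping groups with a change of 0.00 ± 0.09 (adjusted p = 0.99). Ferritin genes have many processed copies; 14 other genes with ferritin names held 20 counts in all 16 samples together, and reads that fit several places were not counted.

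**Figure D3:**
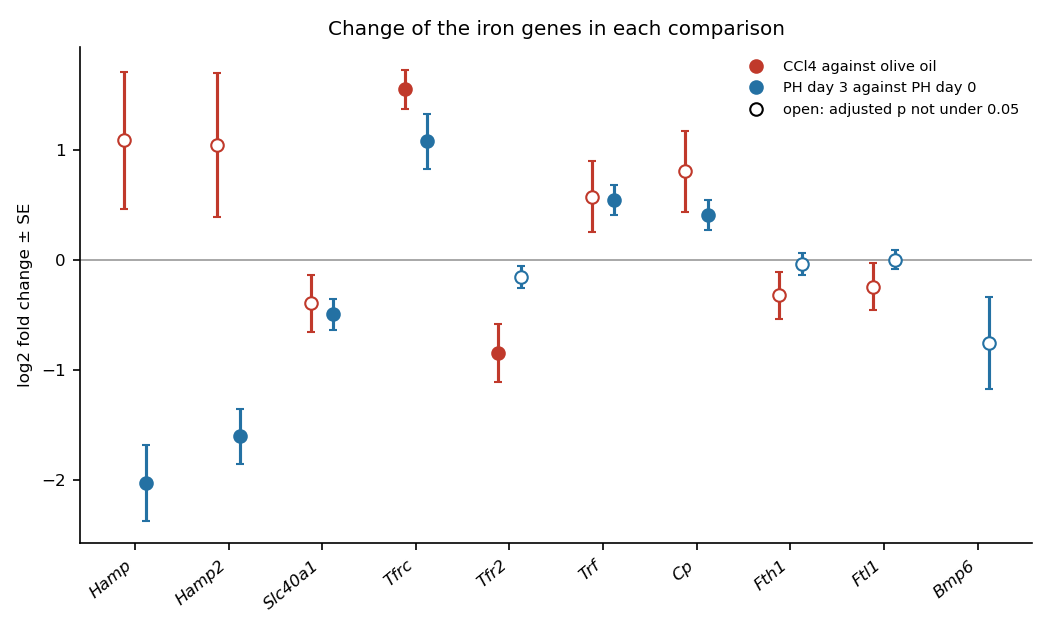
Log2 fold change ± SE (edgeR) of the iron genes for CCl4 against olive oil (n = 3 each) and PH day 3 against PH day 0 (n = 5 each), with filled points where the adjusted p was under 0.05. Tfrc was higher in both, and Hamp was at -2.02 after surgery and at 1.09, not passed, after CCl4. Bmp6 was below the filter after CCl4.

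Ratios of 2 genes within a library do not depend on the scaling, and 3 were tested with a two-sided exact permutation test over samples, adjusted over the 3 ratios. This test took the PH samples as unpaired. With PH numbers taken as pairs, an exact sign-flip test gave an adjusted p of 0.19 for Tfrc to Tfr2 and for Hamp2 to Hamp. The log2 ratio of Tfrc to Tfr2 was -2.93 ± 0.60 at PH day 3 against -4.17 ± 0.51 at PH day 0 (SD, n = 5 each), a difference of 1.24 (exact p = 0.016, adjusted p = 0.024). Only PH day 3 replicate 14, at -3.77, lay within the PH day 0 range. In CCl4 it was -2.13 ± 0.80 against -4.58 ± 0.14 in olive oil (SD, n = 3 each), a difference of 2.45 whose exact p of 0.10 is the smallest that 3 against 3 samples can give.

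The log2 ratio of Hamp2 to Hamp was -2.55, -2.85, -3.17, -2.83 and -2.99 in PH day 3 replicates 12 to 16, against -3.44, -3.28, -3.16, -3.38 and -3.32 in PH day 0 replicates 12 to 16. The PH day 3 ratios were higher apart from replicate 14, which lay just below the PH day 0 maximum, and the difference was 0.44 (exact p = 0.016, adjusted p = 0.024). Hamp2 counts were 15 to 61 at PH day 3 against 90 to 226 at PH day 0. In CCl4 the ratio averaged -3.53 ± 0.21 against -3.48 ± 0.13 in olive oil (exact p = 0.80, n = 3 each). The ratio of Fth1 to Ftl1 differed by -0.04 between PH day 3 and PH day 0 (exact p = 0.50, n = 5 each) and by -0.06 between CCl4 and olive oil (exact p = 0.90, n = 3 each).

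**Figure D4:**
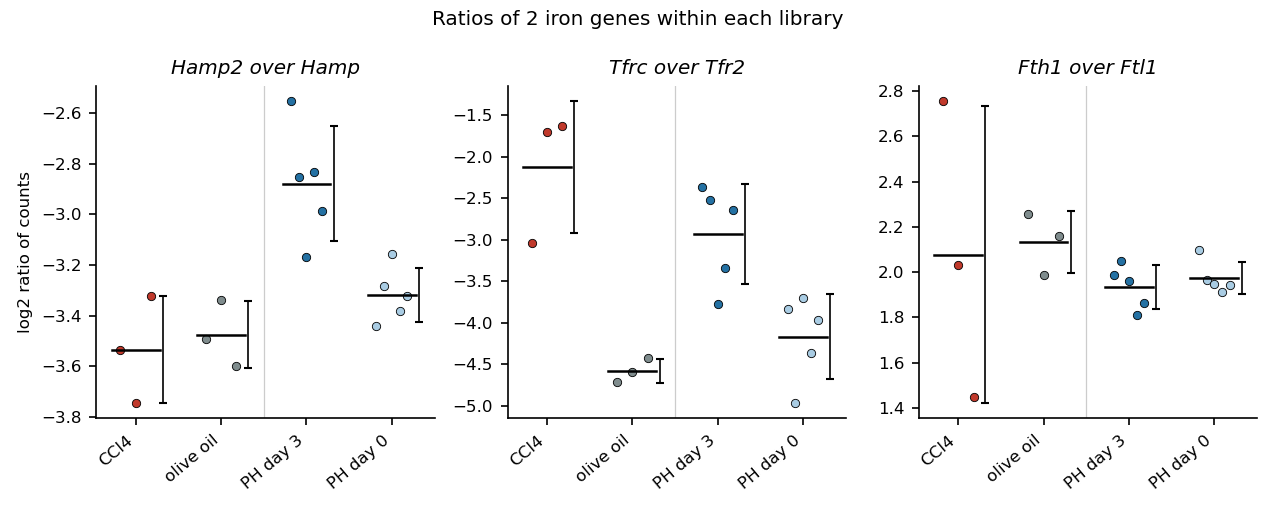
Log2 ratio of the counts of 2 iron genes within each library, with the group mean as a line and its SD as a bar (CCl4 and olive oil n = 3 each, PH day 3 and PH day 0 n = 5 each). The Tfrc to Tfr2 ratio averaged -2.93 at PH day 3 and -4.17 at PH day 0, and the Fth1 to Ftl1 ratios of the groups overlap.

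Among 24 genes of hepcidin control by BMP and SMAD proteins, the calls were no more frequent than the 22.9% after CCl4 and 17.7% after surgery over all genes. After CCl4, 3 of the 21 tested rose (Id1, Id3 and Id2) and Tmprss6 fell, with a median log2 fold change of 0.19 against 0.01 over all genes. After surgery, of 19 tested, Hjv rose and Id2 and Tmprss6 fell, with a median of -0.23 against -0.01 over all genes. Other BMP targets did not pass after CCl4: Smad7 was at 0.13 ± 0.36, Smad6 at 0.26 ± 0.64 and Atoh8 at 0.46 ± 0.45. Id1 was at 33.7, 23.8 and 10.8 CPM in CCl4 against 5.01, 2.64 and 2.12 CPM in olive oil, groups that did not overlap (2.78 ± 0.49, adjusted p = 0.0046 with edgeR, 0.051 with limma-voom). At PH day 3 it was at 0.942 to 2.73 CPM against 1.05 to 4.00 CPM at PH day 0 and was not tested. Id3 was at 50.5, 61.3 and 42.2 CPM in CCl4 against 30.8, 19.3 and 19.1 CPM in olive oil, again without overlap (1.14 ± 0.22, adjusted p = 0.0053, 0.057 in the fit of all 16 samples). After surgery, Id3 averaged at PH day 3 26.8 ± 15.2 CPM against 56.6 ± 16.9 CPM at PH day 0 (n = 5 each) and did not pass (-1.06 ± 0.38, adjusted p = 0.099). Id2 was at 195, 161 and 120.0 CPM in CCl4 against 111, 82.1 and 88.4 CPM in olive oil (0.74 ± 0.20, adjusted p = 0.025). Leaving out CCl4 replicate 2, or the second or the third olive oil liver, took it past the threshold (adjusted p = 0.068 to 0.12). After surgery Id2 stood at PH day 3 at 67.8, 109, 60.0, 66.3 and 54.5 CPM against 108, 166, 137, 168 and 150.3 CPM at PH day 0, where PH day 3 replicate 13 lay just above the lowest PH day 0 value (-1.01 ± 0.18, adjusted p = 0.0024).

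Tmprss6, the protease that cleaves hemojuvelin and so lowers hepcidin, was lower in both experiments. It was at 272, 257 and 267 CPM in CCl4 against 489, 444 and 443 CPM in olive oil (-0.81 ± 0.17, adjusted p = 0.0063 with edgeR), which library size scaling moved to -0.36 (adjusted p = 0.21). At PH day 3 it was at 379, 424, 408, 353 and 362 CPM against 479.7, 505.6, 460.1, 451 and 437 CPM at PH day 0, again without overlap (-0.26 ± 0.09, adjusted p = 0.034). That call was lost under library size scaling (adjusted p = 0.38), without PH day 0 replicate 12 or 13 and without PH day 3 replicate 12, 15 or 16 (adjusted p = 0.056 to 0.096). Hjv, hemojuvelin, the BMP co-receptor, averaged 117 ± 9.77 CPM at PH day 3 against 91.8 ± 8.97 CPM at PH day 0 (n = 5 each) and rose by 0.36 ± 0.09 (adjusted p = 0.0079, 0.091 in the fit of all 16 samples). Hfe, the partner of Tfr2 in iron sensing, was at -0.25 ± 0.16 after CCl4 and 0.05 ± 0.10 after surgery, and Bmp2, another endothelial ligand, was at 0.75 ± 0.43 and -0.21 ± 0.30, none of which passed.

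**Figure D5:**
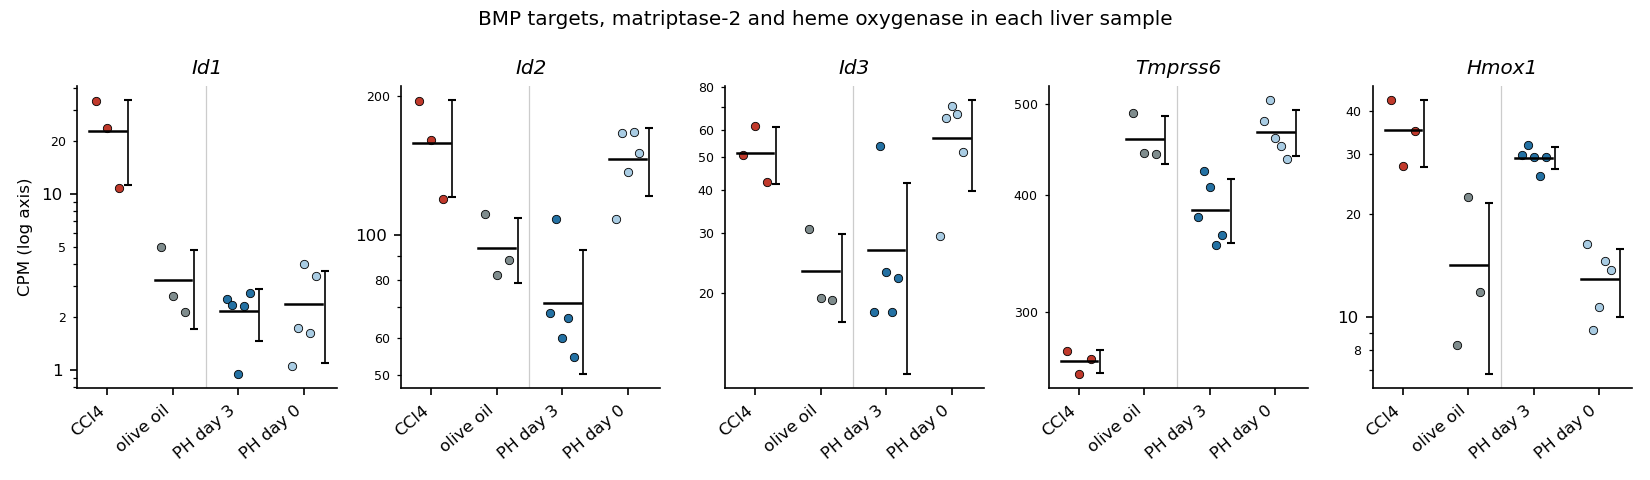
Level (CPM, log axis) of the BMP targets Id1, Id2 and Id3, of Tmprss6 and of the heme-degrading enzyme Hmox1 in every liver sample, with the group mean as a line and its SD as a bar (CCl4 and olive oil n = 3 each, PH day 3 and PH day 0 n = 5 each). Id1 is at 10.8 CPM or more in CCl4 and at 5.01 CPM or less in olive oil, and Tmprss6 groups do not overlap in either experiment.

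Of 19 genes of hepcidin control by interleukin-6 and STAT3, with their acute-phase readouts, 2 of 17 tested rose after CCl4 (Inhbb and Jak1) and Cebpa fell, with a median of -0.28 against 0.01 over all genes. Il6st and Cebpa were the 2 of 16 tested that fell after surgery, with a median of 0.26 against -0.01. Both shares were below the 22.9% and 17.7% called over all genes. Cebpa, a factor needed for hepcidin transcription in mice, averaged 126 ± 43.4 CPM in CCl4 against 300.3 ± 39.9 CPM in olive oil (-1.27 ± 0.24, adjusted p = 0.0044 with edgeR, 0.072 with library size scaling). It averaged 178 ± 30.2 CPM at PH day 3 against 280.2 ± 50.2 CPM at PH day 0 (-0.64 ± 0.13, adjusted p = 0.0011). Inhbb, which encodes the activin B subunit and had 1 to 4 counts in olive oil, rose by 3.28 ± 0.85 (adjusted p = 0.020), at 9.97, 2.59 and 2.45 CPM in CCl4 against 1.00, 0.220 and 0.236 CPM in olive oil, which did not pass with limma-voom or when the second or the third olive oil liver was left out (adjusted p = 0.084 to 0.095). Jak1, a kinase of the interleukin-6 receptor, rose by 0.45 ± 0.14 (adjusted p = 0.040), lost when CCl4 replicate 2, CCl4 replicate 3 or any olive oil liver was left out (adjusted p = 0.071 to 0.17) or with no filter (adjusted p = 0.057). Il6st, a subunit of that receptor, was at -0.23 ± 0.08 (adjusted p = 0.049), a call that ended whichever PH sample other than PH day 0 replicate 13 was left out (adjusted p = 0.060 to 0.11), and in 6 other settings (adjusted p = 0.052 to 0.50). Without CCl4 replicate 1 the CCl4 counts of the list were 2 risen and 4 fallen. The share over all genes in that fit is not given here, and omissions of 1 sample gave 1492 to 3513 calls against 2599.

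The acute-phase genes of the list passed in neither experiment and varied widely within groups. Saa1, a serum amyloid induced by interleukin-6, was at 1905, 248 and 69.5 CPM in CCl4 replicates 1 to 3 against 140.4, 4497 and 1846 CPM in olive oil replicates 1 to 3. Lcn2, an iron-siderophore binding protein of the same response, was at 3099.9, 364 and 229 CPM in CCl4 against 8.52, 722 and 175 CPM in olive oil. CCl4 replicate 1, the library with the highest Hamp, was the highest of the CCl4 libraries for both genes, whereas olive oil replicate 2, with the highest Saa1 and Lcn2 of the olive oil libraries, had the lowest Hamp of these. Lcn2 at PH day 3 was at 187 to 1287 CPM against 10.7 to 406 CPM at PH day 0, and the log2 fold change of 2.5 ± 1.02 did not pass (adjusted p = 0.14).

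The iron regulatory proteins and oxygen sensors, 9 genes, were all tested. Ireb2, iron regulatory protein 2, was the 1 gene called after CCl4, at 69.1 ± 12.6 CPM against 101 ± 11.5 CPM in olive oil (-0.57 ± 0.16, adjusted p = 0.031 with edgeR, 0.79 with library size scaling, 0.054 with upper quartile factors and 0.0505 to 0.12 when CCl4 replicate 3, olive oil replicate 2 or olive oil replicate 3 was left out). After surgery 0 of 9 were called with edgeR, DESeq2 or limma-voom, and 0 at an unadjusted p under 0.05. Over all genes edgeR called 22.9% after CCl4 and 17.7% after surgery, and 9 genes are too few to set against these shares. Aco1, iron regulatory protein 1 when it lacks its iron-sulfur cluster, was at -0.48 ± 0.18 after CCl4 (adjusted p = 0.082) and 0.15 ± 0.08 after surgery (adjusted p = 0.23).

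In the list of iron uptake, delivery and export, 19 of 21 genes were tested. After CCl4 the metalloreductase Steap4 rose, at 317 ± 77.0 CPM against 152 ± 38.2 CPM in olive oil (1.04 ± 0.23, adjusted p = 0.010 with edgeR, 0.060 to 0.070 when olive oil replicate 1 or olive oil replicate 3 was left out), and Mcoln1 fell, at 25.3 ± 1.97 CPM against 45.4 ± 7.62 CPM (-0.86 ± 0.17, adjusted p = 0.0051, 0.15 with library size scaling). Mcoln1 encodes a lysosomal channel that passes iron. After surgery Picalm, which takes part in endocytosis of the transferrin receptor, rose to 129 ± 23.2 CPM at PH day 3 against 88.8 ± 8.67 CPM at PH day 0 (0.54 ± 0.11, adjusted p = 0.0010). Slc39a14, an importer of iron not bound to transferrin, rose by 0.41 ± 0.13 (adjusted p = 0.038), a call that ended in the fit of all 16 samples (adjusted p = 0.30) and in 6 of 10 omissions (adjusted p = 0.067 to 0.094). Mcoln1 fell, at -0.49 ± 0.14 (adjusted p = 0.018, 0.083 with library size scaling and 0.053 without PH day 0 replicate 12). The medians of the list were 0.36 after CCl4 and 0.20 after surgery. Without CCl4 replicate 1 its CCl4 counts were 2 risen and 4 fallen. The share over all genes in that fit is not given here, and omissions of 1 sample gave 1492 to 3513 calls against 2599.

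Of the 8 heme genes, all tested, 2 rose and 1 fell after CCl4, and 1 rose and 1 fell after surgery, where 22.9% and 17.7% of all genes were called. Hmox1, which frees iron from heme, was at 43.1, 27.6 and 35.0 CPM in CCl4 against 8.27, 22.4 and 11.8 CPM in olive oil (1.28 ± 0.34, adjusted p = 0.027 with edgeR, 0.066 to 0.11 when CCl4 replicate 3, olive oil replicate 1 or olive oil replicate 3 was left out). At PH day 3 it was at 29.7, 31.8, 29.2, 25.8 and 29.3 CPM against 16.3, 9.19, 10.7, 14.5 and 13.7 CPM at PH day 0 (1.17 ± 0.16, adjusted p = 1.3e-05). Neither pair of groups overlapped. Slc48a1, a lysosomal heme exporter, also rose after CCl4 (0.71 ± 0.18, adjusted p = 0.015, 0.059 to 0.083 in the same omissions) and Slc46a1, a heme and folate carrier, fell (-0.74 ± 0.14, adjusted p = 0.0047, 0.28 with library size scaling). Blvrb, a biliverdin reductase, fell after surgery (-0.34 ± 0.11, adjusted p = 0.037, 0.27 with library size scaling, 0.057 in the fit of all 16 samples and 0.055 to 0.089 in 7 of 10 omissions). Macrophages also carry Hmox1. All 6 tested monocyte and infiltrating macrophage markers rose after CCl4, and 0 of the 3 tested passed after surgery. Their sums were 367 to 502.9 CPM in CCl4 livers against 75.7 to 193 CPM in olive oil livers, where Ly6c2 was at 0. Of 8 Kupffer cell markers, 0 rose and C6 and Timd4 fell after CCl4, and Marco rose and C6 fell after surgery. The part of either marker group in the Hmox1 result was not tested.

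Of 18 genes for iron-sulfur clusters and mitochondrial iron, 17 were tested. Fdx1, Abcb8 and Glrx5 fell after CCl4, and after surgery Glrx5, Iscu and Nfs1 fell, with medians of -0.29 and -0.11. Fdx1, a ferredoxin that feeds electrons to cluster assembly, was at 32.9 ± 10.3 CPM in CCl4 against 68.4 ± 4.45 CPM in olive oil (-1.07 ± 0.21, adjusted p = 0.0053 with edgeR, 0.14 with library size scaling). Glrx5, a carrier of clusters, was at -0.56 ± 0.17 after CCl4 (adjusted p = 0.043, but -0.11 and 0.72 with library size scaling, and lost with upper quartile factors and DESeq2) and -0.42 ± 0.11 after surgery (adjusted p = 0.0090, 0.10 with library size scaling), and its CCl4 value did not pass when CCl4 replicate 2 or any olive oil liver was left out (adjusted p = 0.065 to 0.15). Iscu, the scaffold on which clusters are built, was at 14.8 ± 3.50 CPM at PH day 3 against 23.5 ± 3.72 CPM at PH day 0 (-0.65 ± 0.18, adjusted p = 0.012, 0.057 with library size scaling). The calls of Abcb8 and Nfs1 each ended in 4 or more omissions of a sample. Abcb8, a transporter of the inner mitochondrial membrane, was at -0.56 ± 0.16 after CCl4 (adjusted p = 0.031, but -0.11 and 0.75 with library size scaling, and lost with upper quartile factors and DESeq2). After surgery Nfs1, the cysteine desulfurase, was at -0.36 ± 0.12 (adjusted p = 0.046, 0.27 with library size scaling and 0.058 with DESeq2).

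Likeness to a gene was measured as the root mean square difference in log2(CPM + 1), after centring each gene within its experiment, over 16 samples and 11866 genes. Nearest to Hamp was Hamp2 at 0.26, followed by Cyp4b1 at 0.61, Slc25a30 at 0.69 and Adgrf1 at 0.70, where the median over genes was 1.15. Nearest to Tfr2 were Igfbp4 at 0.13, Fetub at 0.13, Ldhd at 0.14 and Brap at 0.14, against a median of 0.49. Nearest to Tfrc were Samd4 at 0.24, Anxa5 at 0.27, Pkp1 at 0.29 and Atp6v0e2 at 0.30, against a median of 0.77. These values are descriptions of samples that share their libraries.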

How the data were processed

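Messenger RNA libraries of 16 whole-liver samples were sequenced. Per the file headers, the authors deposited raw counts per gene from featureCounts 1.6.2, on Ensembl release 95 exons with reverse strand setting 2, without options for reads that fit several places or genes. STAR 2.5.1, Subread and GRCm38 are named in the submitters' processing notes. Reads that fit near-identical copies were therefore not counted, which lowers such genes.

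Counts were scaled by TMM and tested with edgeR 4.0.16 (R 4.3.3) by the quasi-likelihood test, after filterByExpr (minimum count 10, total 15), within each experiment, and over all 16 samples for the difference of responses. The call was a Benjamini-Hochberg adjusted p under 0.05, and the SE was derived from the F statistic. The fits were tested on simulated data. Alternatives were DESeq2 1.42.0, voom in limma 3.58.1, other scalings and filters, each sample left out, a threshold of 0.01 and a replicate block. Ratios of counts with a pseudocount of 0.5 were tested with scipy 1.17.1. The labels do not tie samples to separate cultures or litters, so p-values measure the spread between these samples. Symbols came from GENCODE M21 (54809 of 54838 identifiers).

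The members and lists were chosen with earlier results of these data known. The text names the 10 genes, up to 3 called genes of smallest adjusted p per list and experiment, and the 4 nearest genes by likeness; Hfe, Bmp2, Smad6, Smad7, Atoh8, Saa1, Lcn2, Il1b and Aco1 were chosen after their values were seen. A called gene of the lists is not reported here.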

Additional observations from a re-analysis of the deposited data

Results flagged for a closer look

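Slc40a1 in PH day 3 replicate 16 stood apart from the other 4 livers of its group, at 114 CPM against 73.3 to 82.9 CPM. It was the 1 flagged of 26 groups of 5 looked at, and chance flags about 1 in 20 groups.

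The responses to the 2 challenges, CCl4 over olive oil minus PH day 3 over PH day 0, differed by the edgeR test of the difference for the genes below, apart from those named as not passed. For the hepcidin copies the log2 difference was 3.13 for Hamp and 2.67 for Hamp2. Among BMP targets it was 2.82 for Id1 (adjusted p = 0.0091, 0.14 with limma-voom), 2.23 for Id3 (adjusted p = 0.030) and 1.78 for Id2 (adjusted p = 0.0016). Other BMP targets did not pass: Smad7 was at 0.97 (adjusted p = 0.32), Smad6 at 0.97 (adjusted p = 0.55) and Atoh8 at 0.82 (adjusted p = 0.38). Of 22 genes tested in the BMP and SMAD list, 3 were called upward and 1 downward, where 5.33% of all genes were called. The Id2 call held in all alternatives run, and the Id3 call ended with no filter and in 8 of 16 omissions of a sample (adjusted p = 0.051 to 0.092). Tmprss6 differed by -0.51 (adjusted p = 0.047), a call that ended in 14 of 16 omissions (adjusted p = 0.050 to 0.13) and with library size scaling, upper quartile factors, no filter and the filter of 1 CPM (adjusted p = 0.057 to 0.47).

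Il1b, an inflammatory cytokine, differed by -3.47 (adjusted p = 0.044) at 0.327 to 0.849 CPM in CCl4 against 1.42 to 3.51 CPM in olive oil. That call ended with library size scaling, limma-voom, no filter and the filter of 1 CPM (adjusted p = 0.056 to 0.075) and in 10 of 16 omissions (adjusted p = 0.056 to 0.13). Aco1 differed by -0.60 (adjusted p = 0.034) and Fdx1 by -0.78 (adjusted p = 0.029), and both calls ended with library size scaling (-0.30 and -0.46). The Aco1 call also ended with upper quartile factors, no filter and in 9 of 16 omissions (adjusted p = 0.052 to 0.11), and the Fdx1 call in 5 of 16 (adjusted p = 0.052 to 0.087). Experiment and challenge cannot be told apart in these differences.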

How the results depend on the processing

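Of 575 values of the 10 genes under alternatives, 492 kept direction and side of the threshold, 46 lost the call, 6 gained it and 31 changed sign. The falls of Hamp and Hamp2 after surgery and the rise of Tfrc after CCl4 passed in every alternative run. At a threshold of 0.01 the calls over all genes were 1258 for CCl4, 1090 for PH and 255 for the difference, against 2599, 1871 and 633. Leaving out 1 sample gave 1492 to 3513 for CCl4 and 384 to 931 for the difference. Of the iron genes, CCl4 called 2, but 1 with upper quartile factors or at 0.01, 3 with library size only, no filter or the fit of all samples, and 1 to 3 with a sample left out. PH called 6, but 3 at 0.01 or in the fit of all samples, and 4 to 6 with a sample left out. The difference called 2, but 1 with limma-voom or no filter, 0 at 0.01, and 0 to 3 with a sample left out.

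With library size only, signs turned for Slc40a1 (0.11), Fth1 (0.10) and Ftl1 (0.24) after CCl4, for Fth1 (0.10) after PH, and for Ftl1 (0.11) and Bmp6 (0.26) in the difference. Ftl1 after PH turned to -0.014 with upper quartile factors, -0.0076 with a filter of 1 CPM, -0.010 in the fit of all samples and -0.022 with no filter, and Bmp6 in the difference to 0.023 with upper quartile factors. With a sample left out the difference ran from -0.14 to 0.37 for Slc40a1, -0.35 to 0.29 for Trf, -0.12 to 0.67 for Cp and -0.33 to 0.23 for Bmp6, and PH from -0.088 to 0.018 for Fth1 and -0.041 to 0.026 for Ftl1. None of these genes had passed in that comparison. After CCl4 the log2 ratio of Hamp2 to Hamp ran from -0.17 to 0.046 and that of Fth1 to Ftl1 from -0.39 to 0.26. The cause was not tested.

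Whether a shared PH number means the same mouse is not known here, and the main tests took the samples as unpaired. Same-numbered deviations correlated at -0.03 to 0.10, over 0.1 in 1 of 5 pairs. Of the 5 day 3 samples, 3 correlated best with their own number. These correlations cannot settle whether the samples are pairs. With the replicate block 1864 genes were called after PH, and the ratio differences of 0.44 for Hamp2 to Hamp and 1.24 for Tfrc to Tfr2 had an adjusted p of 0.19, where 5 pairs cannot go below 0.0625 unadjusted. No sample numbers pair the injection groups here. Depth limits Bmp6, Id1 after PH and Inhbb, which had few counts.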
